A study of Mus musculus with 56 samples.

Results

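CD4 T cells that had lost CD62L by 72 h of activation were compared with mature CD4 T cells taken without activation. The members were chosen by their labels: 3 libraries of CD62L negative cells at 72 h and 3 libraries of mature cells, all from the first of the study's experiments, so 6 of 56 libraries in the series and 6 of 18 in that experiment. The study profiled spleen CD4 T cells of C57BL/6 mice by sequencing the 3′ ends of their mRNA before activation and at several times after it. The activated cells began as naive cells at 250000 cells per ml in complete RPMI, received beads carrying antibodies to CD3 and CD28 with no cytokine added, and were sorted as CD4 positive, CD62L negative cells at 72 h, with CD44 not in the gate. The mature cells had no activation (time 0), were selected as CD4 positive, CD44 positive, CD62L negative, and are labelled as enriched by MACS, a magnetic selection, where the activated cells are labelled as sorted. For a second comparison, CD62L positive cells sorted from the same kind of culture at 72 h were set against unactivated naive cells (CD44 negative, CD62L positive, MACS enrichment). All groups have 3 libraries, and no genetic change, age or number of animals is given in the sources used here. Activation, time in culture, the cells of origin (naive or antigen-experienced) and the way of selection all differ between the activated and the mature cells and cannot be told apart. No label says that the 3 libraries of a group came from separate mice or cultures, so the p-values measure the spread between these libraries, which may be technical.

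CD62L is the adhesion molecule that lets naive and central memory T cells enter lymph nodes from the blood. It is lost when the T-cell receptor is engaged, and antigen-experienced effector and effector memory cells lack it while carrying much CD44, a hyaluronan receptor. A CD62L negative surface is thus shared by newly activated cells, which grow, make IL-2 and divide, and by resting effector memory cells, which are known for tissue-homing receptors, chemokines and quickly made effector cytokines.

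Of 8961 genes tested, 4366 (48.7%) differed between the groups at an adjusted p under 0.05 (edgeR's quasi-likelihood test on the deposited counts, Benjamini-Hochberg over all genes tested), with 2180 higher at 72 h (24.3%) and 2186 lower (24.4%). The 3 libraries of each group did not overlap in CPM (read counts scaled to a common total, on TMM library sizes) at 5210 genes (58.1%). Most genes named below were picked for large or clear differences. A lack of overlap at them is thus a description and adds no support to the calls. The median log2 difference over all genes tested was -0.01. Log2 differences are given as activated minus mature, with the standard error of the fit, and a list of genes is described by how many of its members passed the test and by its median beside these values. Genes at or above the median average level of all genes tested are called well expressed.

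Both groups had the T-cell transcripts their labels name. Cd4, the coreceptor used in both selections, had 556, 625 and 835 CPM at 72 h and 1173, 1101 and 1208 CPM in mature cells. Cd3e, a signalling chain of the T-cell receptor complex, had 391, 342 and 409 CPM at 72 h and 592, 603 and 599 CPM in mature cells. The summed level of 7 T-cell markers was 3522 to 3951 CPM at 72 h and 5351 to 5454 CPM in mature cells, and 5 of the 7 were lower at 72 h. Cd44 mRNA was lower at 72 h, where CD44 was not gated, at 86.8, 99.9 and 73.4 CPM, against 171, 230.4 and 239.9 CPM in the CD44 positive mature cells (log2 difference -1.30 ± 0.18, adjusted p = 2.9e-07).

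B cell, NK and myeloid transcripts were far more abundant in the mature libraries. Of 11 B cell markers tested, all 11 were lower at 72 h, and their list summed to 74.3 to 114.8 CPM at 72 h and 7233 to 8388 CPM in mature cells. Ebf1 and Cr2, both B cell genes, had 0 counts at 72 h. Pax5 had 0 counts at 72 h and in mature and naive cells alike, so its level sets none of these groups apart. The CD8 and NK list summed to 27.4 to 35.6 CPM at 72 h and 286.5 to 311.7 CPM in mature cells, with 6 of 7 tested members lower. The myeloid list summed to 16.8 to 42.8 CPM at 72 h and 232.7 to 320.1 CPM in mature cells, with 9 of 11 tested members lower. The red cell and platelet list differed less, with 1 of 5 tested members lower, the platelet integrin chain Itga2b, and sums of 22.1 to 61.7 CPM at 72 h and 94.2 to 107.7 CPM in mature cells. At 72 h Ncr1, Klrb1c, Klrd1, Klra8 and Klre1 of the NK list had 0 counts, as did S100a8, S100a9, C1qc and Siglech of the myeloid list. In the other pair the B cell sum was 229.3 to 255.9 CPM in CD62L positive cells at 72 h and 8227 to 15312 CPM in naive cells. The part these cells play in the genes that were lower at 72 h was not tested. In such bulk samples fewer cells of a type and less RNA per cell cannot be told apart.

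**Figure D1:**
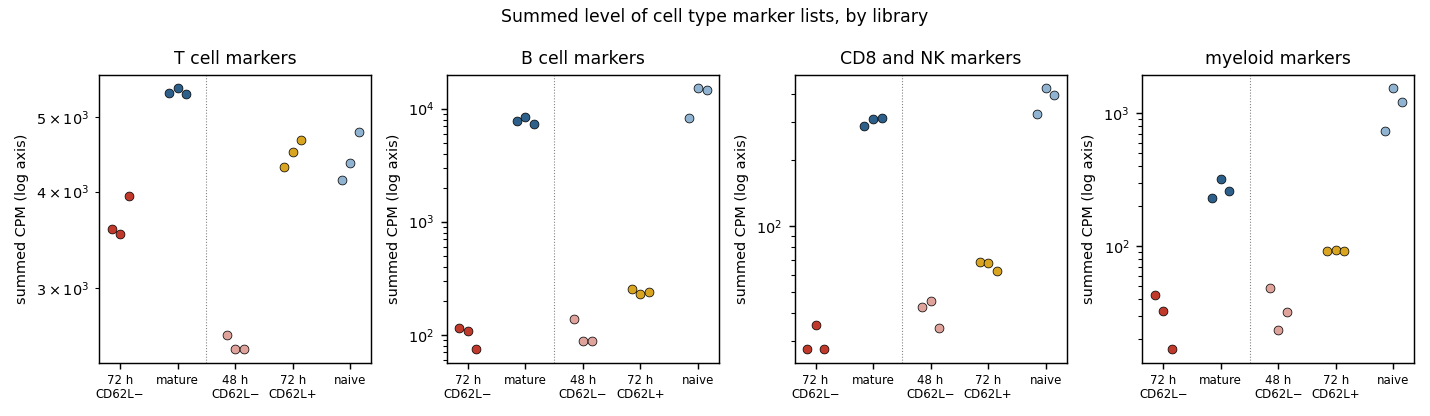
Summed level in CPM (log axis) of the T cell, B cell, CD8 and NK, and myeloid marker lists, with 1 point for each library of the CD62L negative cells at 72 h, the mature cells, and, right of the dotted line, CD62L negative cells at 48 h, CD62L positive cells at 72 h and naive cells. The B cell sum was 74.3 to 114.8 CPM at 72 h and 7233 to 8388 CPM in mature cells, while the T cell sum was 3522 to 3951 CPM at 72 h and 5351 to 5454 CPM in mature cells.

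The activated libraries were deeper, with 1738555, 1464657 and 1153970 counts at 72 h, against 509557, 481429 and 603217 counts in mature cells. Replicate 3 of the CD62L negative cells at 72 h differed most from the other 2: over 6598 genes with a mean of at least 20 CPM, 54 lay below 0.5 of both other libraries there, against 1 gene in each of replicates 1 and 2. The same count was 29 to 50 in the shallower mature libraries. The number of genes past the test was 4345 without that library.

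**Figure D2:**
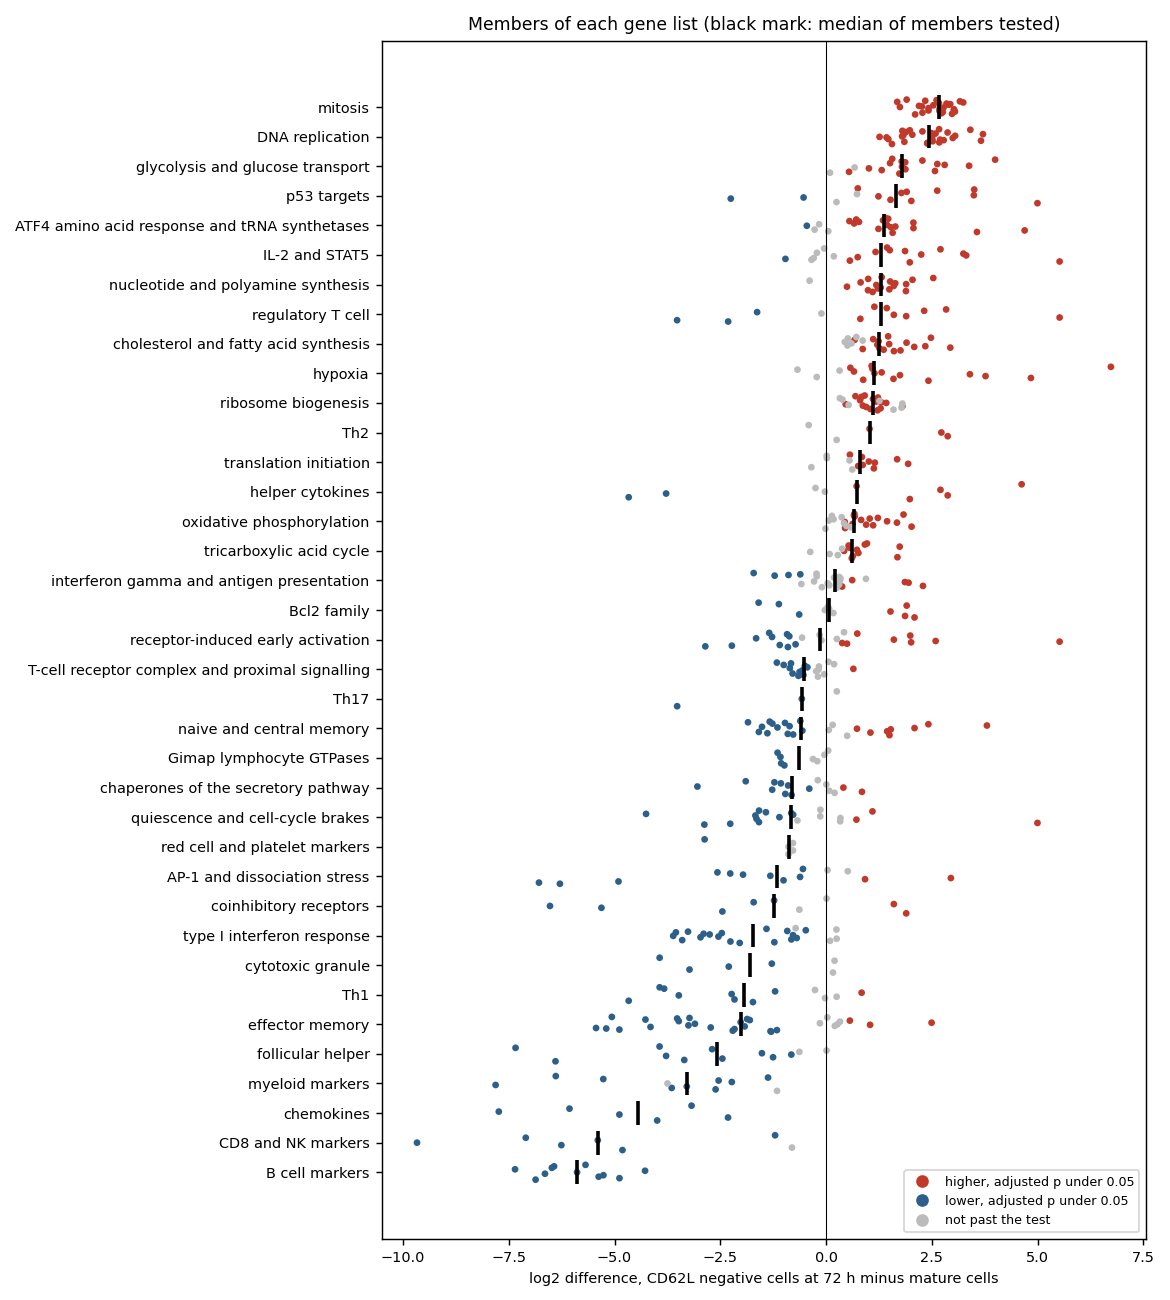
Fitted log2 difference (CD62L negative cells at 72 h minus mature cells, horizontal axis) of every tested member of the 37 gene lists, with red for higher and blue for lower members past the test, grey for the rest and a black mark at the list's median. The mitosis and DNA replication lists lie wholly to the right, with medians of 2.68 and 2.44, and the B cell, CD8 and NK, chemokine and follicular helper lists lie almost wholly to the left.

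The activated cells carried the transcripts of a dividing population. All 28 tested members of the DNA replication list were higher at 72 h, with a median log2 difference of 2.44, and all 27 tested members of the mitosis list were higher, with a median of 2.68, where 24.3% of all genes tested were higher. Mcm5, a subunit of the replicative helicase, had 777, 859.8 and 813 CPM at 72 h and 121, 118 and 142 CPM in mature cells. The groups lay far apart, with a log2 difference of 2.68 ± 0.14 (adjusted p = 4.4e-18). Mcm3 of the same helicase had 567, 548 and 644 CPM at 72 h and 142, 87.7 and 104 CPM in mature cells (log2 difference 2.39 ± 0.15). Rrm1, the large subunit of ribonucleotide reductase, had 739, 758 and 794 CPM at 72 h, against 137, 137 and 135 CPM in mature cells. Gins2, a subunit of the GINS complex that works with the helicase, had 262, 299.8 and 278 CPM at 72 h and 26.9, 30.6 and 45.7 CPM in mature cells. In all of these genes every activated library was above every mature one.

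Mitotic genes showed the same separation. Top2a, the topoisomerase that untangles sister chromatids, had 1175, 1107 and 1094 CPM at 72 h and 142, 120.3 and 163 CPM in mature cells (log2 difference 2.98 ± 0.16, adjusted p = 2.03e-17). Ube2c, the ubiquitin-conjugating enzyme of the anaphase-promoting complex, had 1229, 1268 and 1336 CPM at 72 h and 204, 267 and 243 CPM in mature cells. Plk1, a kinase of mitotic entry, had 397, 422 and 446 CPM at 72 h, against 63.5, 77.5 and 57.1 CPM in mature cells, and the groups did not overlap. Cdca8, which encodes borealin of the chromosomal passenger complex, had 546, 473 and 628 CPM at 72 h and 84.6, 99.9 and 84.9 CPM in mature cells. Mki67, the proliferation marker Ki-67, had 200.5, 222 and 211 CPM at 72 h, against 38.5, 40.8 and 65.3 CPM in mature cells (log2 difference 2.11 ± 0.22). The activated libraries were above the mature ones at every one of these genes. Psrc1, a spindle protein, and Trip13, an ATPase of the spindle checkpoint, were among the 10 largest rises of well expressed genes, with log2 differences of 4.77 ± 0.22 and 4.02 ± 0.34 (4.89 for Trip13 without mature replicate 3). Psrc1 had 315, 327 and 329 CPM at 72 h and 11.5, 14.3 and 9.79 CPM in mature cells. The number of mitosis members higher at 72 h ranged from 24 to 28 over the other settings tried.

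The promoter letters of the replication and mitosis lists were searched for motifs known from cell-cycle genes: TTTGGCGC or TTTCCCGC (E2F sites), TTTGAA (the cell cycle genes homology region, CHR) and CCAAT, on both strands. The search took list members whatever their counts, but the lists themselves were chosen with earlier results of these data known. The windows ran from 250 bases before to 50 after each RefSeq gene start on build GRCm38.p6, and matched 24 of 30 replication members (29 windows) and 24 of 28 mitosis members (25 windows). A CHR match stood in 76.0% of the mitosis windows, 13.8% of the replication windows and 17.9% of all 32841 windows. An E2F match stood in 34.5% of the replication windows and 1.57% of all windows, and no mitosis window held one. CCAAT stood in 92.0% of mitosis windows, 58.6% of replication windows and 37.4% of all windows. A match of letters is a description and not a site bound in these cells. The letters are shown for a pair of mitosis genes and a pair of replication genes described above, from 250 bases before to 30 after the start, 5′ to 3′ on the strand of the gene, with capitals marking any of these motifs on either strand. No rule set the choice of these genes, and they need not stand for their lists. Both replication genes shown hold an E2F match, where 34.5% of replication windows do. A CCAAT match can share letters with its own reverse complement, as in CCAATTGG of Ube2c.
Top2a, chr11:99024160-99024439, minus strand: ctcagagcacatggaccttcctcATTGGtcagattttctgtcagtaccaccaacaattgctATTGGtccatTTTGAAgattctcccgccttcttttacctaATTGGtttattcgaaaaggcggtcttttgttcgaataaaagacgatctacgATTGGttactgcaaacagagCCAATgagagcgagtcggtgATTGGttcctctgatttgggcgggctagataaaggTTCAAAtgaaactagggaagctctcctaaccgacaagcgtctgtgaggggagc
Ube2c, chr2:164769679-164769958, plus strand: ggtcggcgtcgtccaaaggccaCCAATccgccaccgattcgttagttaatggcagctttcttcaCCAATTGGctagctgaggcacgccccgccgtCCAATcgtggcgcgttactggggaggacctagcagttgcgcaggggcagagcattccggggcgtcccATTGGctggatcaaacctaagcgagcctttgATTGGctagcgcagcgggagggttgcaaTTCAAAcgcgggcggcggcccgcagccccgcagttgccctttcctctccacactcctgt
Mcm3, chr1:20820283-20820562, minus strand: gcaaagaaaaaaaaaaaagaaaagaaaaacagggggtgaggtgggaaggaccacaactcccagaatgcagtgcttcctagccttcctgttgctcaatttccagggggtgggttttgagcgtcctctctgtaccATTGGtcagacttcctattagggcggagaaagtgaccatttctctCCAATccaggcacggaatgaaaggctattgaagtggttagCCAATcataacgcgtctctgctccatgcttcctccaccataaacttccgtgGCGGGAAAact
Mcm5, chr8:75109259-75109538, plus strand: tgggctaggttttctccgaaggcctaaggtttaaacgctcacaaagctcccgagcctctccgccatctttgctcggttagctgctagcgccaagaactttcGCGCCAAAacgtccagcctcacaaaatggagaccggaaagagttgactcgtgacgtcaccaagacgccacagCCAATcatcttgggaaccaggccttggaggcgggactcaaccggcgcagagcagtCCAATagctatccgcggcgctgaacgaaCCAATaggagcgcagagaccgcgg
The Top2a and Ube2c windows hold CHR letters (TTTGAA, or TTCAAA on the other strand) and several CCAAT boxes, and the Mcm3 and Mcm5 windows hold E2F letters (GCGGGAAA and GCGCCAAA, each the other strand of a motif searched).

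Brakes on the cell cycle moved mainly the other way, with 1 large exception. Of 19 tested members of the quiescence list 11 were lower and 3 higher. Btg1, an antiproliferative factor, had 24, 21.2 and 19.4 CPM at 72 h and 175, 151 and 157 CPM in mature cells (log2 difference -2.88 ± 0.22), and Rbl2, the retinoblastoma relative p130, had 87.4, 84.9 and 93.7 CPM at 72 h and 298, 287 and 246 CPM in mature cells. Neither gene's groups overlapped. Cdkn1a, the p21 inhibitor of cyclin-dependent kinases and a target of p53, showed the second largest rise of all well expressed genes, with 1061, 1268 and 1099 CPM at 72 h and 21.2, 38.7 and 45.7 CPM in mature cells (log2 difference 5.00 ± 0.22, adjusted p = 1.62e-19). It was not alone among p53 targets: 10 of 14 tested were higher and 2 lower, with a median of 1.65. Gtse1, which shuttles p53 out of the nucleus, had 280.5, 288 and 362 CPM at 72 h and 26.9, 30.6 and 24.5 CPM in mature cells. Phlda3, an inhibitor of Akt, had 138, 139.6 and 142 CPM at 72 h and 7.69, 10.2 and 18 CPM in mature cells. The 3 activated libraries stood above the 3 mature ones at Cdkn1a, Gtse1 and Phlda3. The death effectors Bax and Bbc3 (PUMA) were higher by 1.52 ± 0.14 and 1.91 ± 0.23 on the log2 scale. Mdm2, the ubiquitin ligase that p53 induces, did not pass the test at 0.25 (adjusted p = 0.28), and Trp53inp1 fell by 2.25 on the log2 scale. Of 11 tested members of the Bcl2 family 4 were higher and 3 lower, where 24.3% of all genes tested were higher and 24.4% lower. Bcl2l1, which encodes the survival factor Bcl-xL, had 366, 353 and 358 CPM at 72 h and 88.5, 116 and 91.4 CPM in mature cells. Mcl1, another survival factor, was lower (517 ± 60.6 CPM at 72 h and 803 ± 43.8 CPM in mature cells, SD, n = 3 each).

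**Figure D3:**
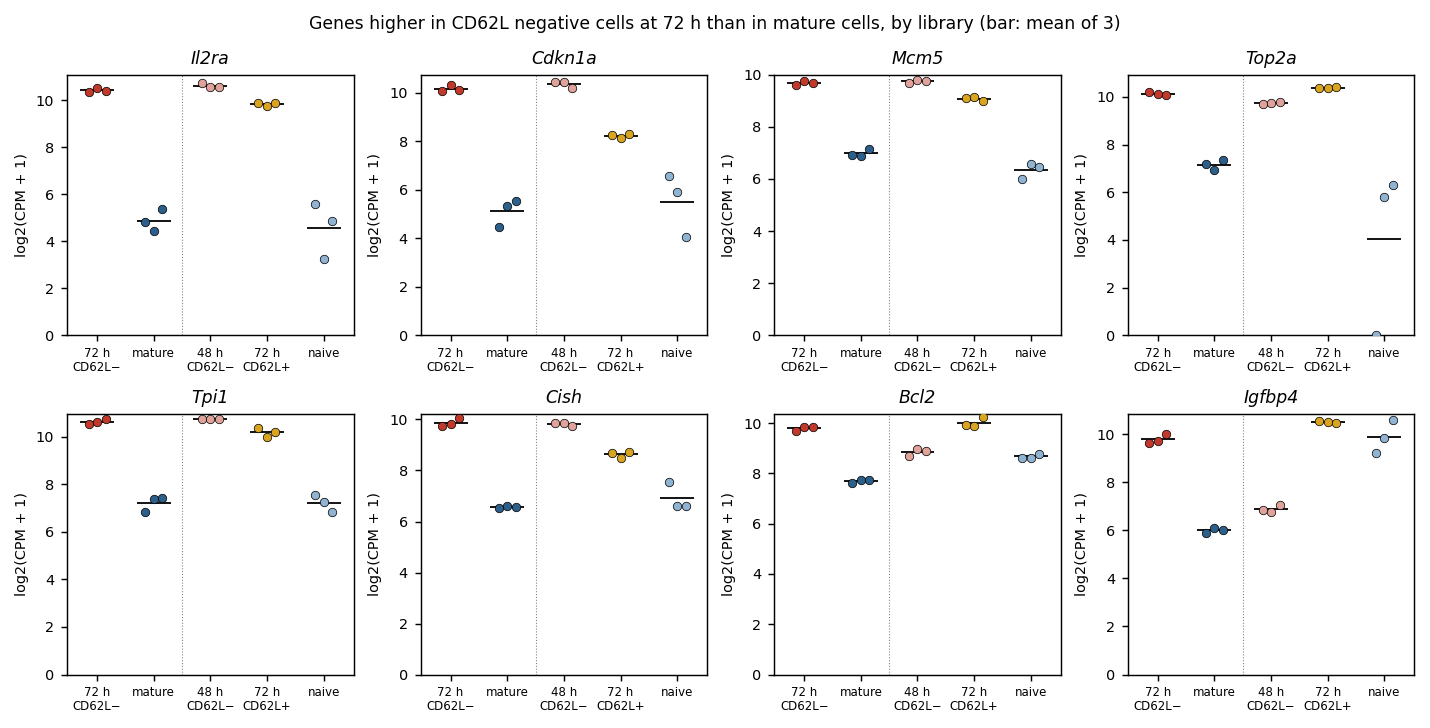
Level of 8 genes in every library, as log2(CPM + 1), for CD62L negative cells at 72 h, mature cells and, right of the dotted line, CD62L negative cells at 48 h, CD62L positive cells at 72 h and naive cells, with a bar at the mean of 3. In each of the 8 genes all 3 CD62L negative libraries at 72 h lie above all 3 mature libraries, as for Il2ra with 1330.4 to 1472 CPM at 72 h and 20.4 to 40.8 CPM in mature cells.

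The genes of growth and biosynthesis rose with those of division. Of 18 tested members of the glycolysis list 16 were higher at 72 h, with a median log2 difference of 1.79. Tpi1 had 1455, 1564 and 1692 CPM at 72 h and 113, 167 and 169.7 CPM in mature cells (log2 difference 3.38 ± 0.16, adjusted p = 7.26e-19), and Ldha, the lactate dehydrogenase subunit, had 4927, 4889.5 and 5381 CPM at 72 h and 969, 1042 and 1121 CPM in mature cells. The groups were well separated in both enzymes. Slc16a3, the lactate exporter MCT4, had 292, 260.1 and 341 CPM at 72 h, against 13.5, 20.4 and 21.2 CPM in mature cells. Of the glucose transporters, Slc2a1 was higher (log2 difference 1.73 ± 0.17) and Slc2a3 was not past the test (0.09 ± 0.19, adjusted p = 0.71). Glycolytic enzymes have processed pseudogenes, and no source used here says how the counting placed reads shared between copies.

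Of the hypoxia list 14 of 17 tested members were higher, with a median of 1.14. Bnip3, a mitochondrial protein that hypoxia induces, had 126, 123 and 78.7 CPM at 72 h and 1.92, 6.12 and 3.26 CPM in mature cells (log2 difference 4.84 ± 0.54). Ankrd37, another hypoxia-induced gene, had 88.5, 95.8 and 71.6 CPM at 72 h and 1.92, 6.12 and 9.79 CPM in mature cells, and Ndrg1 had 97.1, 79.4 and 82.2 CPM at 72 h and 19.2, 16.3 and 13.1 CPM in mature cells. Libraries of the groups did not overlap at any of these 3 genes. Hif1a itself, the oxygen-regulated transcription factor, had 116, 102 and 59.2 CPM at 72 h and 53.8, 75.4 and 76.7 CPM in mature cells, which did not pass the test (adjusted p = 0.263) except with no filter on low counts (0.0374).

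Nucleotide and polyamine synthesis rose in 17 of 18 tested members, with a median of 1.30. Paics, an enzyme of purine synthesis, had 404, 405 and 385 CPM at 72 h and 135, 133 and 155 CPM in mature cells. Shmt2, the mitochondrial enzyme that feeds one-carbon units from serine, had 371, 343 and 474 CPM at 72 h and 152, 157 and 166 CPM in mature cells, and Srm, spermidine synthase, had 486, 486 and 545 CPM at 72 h and 152, 220.2 and 159.9 CPM in mature cells. All 3 genes were higher in every activated library. The ATF4 amino acid response and tRNA synthetase list had 16 of 20 members higher and 1 lower (median 1.38). Asns, asparagine synthetase, had 82.3, 78 and 61.9 CPM at 72 h, against 5.77, 6.12 and 6.53 CPM in mature cells (log2 difference 3.57 ± 0.35). Trib3, a pseudokinase that ATF4 induces, had 54.3, 68.5 and 82.2 CPM at 72 h and 3.85, 0 and 3.26 CPM in mature cells, and Psat1, a serine synthesis enzyme, had 391, 407 and 278 CPM at 72 h and 80.8, 75.4 and 99.6 CPM in mature cells. The exception was Slc3a2, the heavy chain of the amino acid transporter, which fell by 0.45 on the log2 scale, while its partner Slc7a5 was higher (1.44 ± 0.29). The Slc3a2 call was lost in 3 of 6 fits that left out 1 library, with adjusted p of 0.0764 without CD62L negative replicate 1, 0.0706 without mature replicate 2 and 0.0551 without mature replicate 3.

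Cholesterol and fatty acid synthesis rose in 16 of 22 tested members (median 1.25). Sqle, squalene epoxidase, had 121, 157 and 120.2 CPM at 72 h and 13.5, 16.3 and 21.2 CPM in mature cells, and Scd2, a fatty acid desaturase, had 943, 1009 and 818 CPM at 72 h and 171, 159 and 166 CPM in mature cells (log2 difference 2.48 ± 0.14). Cyp51 and Lss, both enzymes of sterol synthesis, were higher by 2.35 ± 0.18 and 2.08 ± 0.22 on the log2 scale. The activated and the mature libraries were apart at each of these genes. Ribosome biogenesis rose in 16 of 23 members (median 1.11) and translation initiation in 9 of 14. Nolc1, a nucleolar phosphoprotein, had 236, 225 and 278 CPM at 72 h and 96.2, 99.9 and 80 CPM in mature cells, and Ncl, nucleolin, had 463, 536 and 430.5 CPM at 72 h and 231, 194 and 191 CPM in mature cells. Mitochondrial genes moved by less: 11 of 15 members of the tricarboxylic acid cycle were higher (median 0.61) and 15 of 23 of oxidative phosphorylation (median 0.66). Atp5b, a subunit of ATP synthase, had 839, 833 and 654 CPM at 72 h and 192, 222 and 238 CPM in mature cells. Every activated library was above every mature one at Atp5b. Against a difference of 2-fold, as tested by edgeR's glmTreat, 2 of the ribosome biogenesis, 2 of the translation, 1 of the tricarboxylic acid cycle and 1 of the oxidative phosphorylation members remained past the threshold, against 13 of the glycolysis, 26 of the replication and 27 of the mitosis members.

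Genes of IL-2 signalling rose, with 12 of 18 members of the IL-2 and STAT5 list higher (median 1.31) and Jak1, the kinase bound to the beta chain, lower (-0.96 ± 0.14). Il2ra, the alpha chain that gives the IL-2 receptor high affinity, was the largest rise of all well expressed genes, with 1330.4, 1472 and 1357 CPM at 72 h and 26.9, 20.4 and 40.8 CPM in mature cells (log2 difference 5.52 ± 0.19, adjusted p = 4.38e-23). Il2 itself had 49.1, 62.3 and 42.4 CPM at 72 h and 9.62, 18.3 and 11.4 CPM in mature cells (log2 difference 1.98 ± 0.31). Every activated library was above every mature one at both genes. The beta chain Il2rb was higher by 0.56 ± 0.14, and the common gamma chain Il2rg did not pass the test (-0.34 ± 0.16, adjusted p = 0.0821), though it did with the compared groups alone (0.00308) and with upper-quartile scaling (0.0315). Targets of STAT5, the transcription factor below this receptor, were higher: Cish, a feedback inhibitor, had 845, 900.1 and 1056 CPM at 72 h and 90.4, 97.9 and 93 CPM in mature cells, and Socs2 had 864, 952 and 735 CPM at 72 h and 90.4, 95.8 and 83.2 CPM in mature cells. Socs1, a further inhibitor of cytokine signalling, had 513, 487 and 573 CPM at 72 h and 102, 128 and 101 CPM in mature cells. The groups did not overlap at these 3 genes.

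Of 9 tested cytokines of helper cells 5 were higher, Il2 among them, and 2 lower. The shares among all genes tested were 24.3% higher and 24.4% lower. Lif, a cytokine of the IL-6 family, had 101, 118 and 110.5 CPM at 72 h and 3.85, 0 and 8.16 CPM in mature cells, and Lta, lymphotoxin alpha, had 662, 678 and 689 CPM at 72 h and 104, 124 and 84.9 CPM in mature cells. Il13, a type 2 cytokine, had 37.7, 45.9 and 26.5 CPM at 72 h and 5.77, 4.08 and 4.9 CPM in mature cells (log2 difference 2.88 ± 0.46). These 3 were higher in every activated library, and so was Il4ra, the IL-4 receptor, at 716, 673 and 939 CPM at 72 h, against 90.4, 137 and 124 CPM in mature cells. Il13 and Il4ra are both in the Th2 list, in which 3 of 5 tested members were higher. Naive cells had means of 420.4 CPM of Il4ra and 0 CPM of Il13. Ifng, the type 1 effector cytokine, went the opposite way, with 7.43, 4.79 and 1.77 CPM at 72 h and 162, 130.5 and 103 CPM in mature cells (log2 difference -4.67 ± 0.30, adjusted p = 2e-15). NK markers were lower at 72 h as well, and their part in the fall of Ifng was not tested. Il21, which follicular helper cells make for B cells, had 1.71, 1.37 and 1.77 CPM at 72 h and 25, 24.5 and 22.8 CPM in mature cells. Tnf was near equal between the groups, at 94.4 ± 34.3 CPM at 72 h and 97.5 ± 6.9 CPM in mature cells (SD, n = 3 each; adjusted p = 0.942).

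Among genes that the T-cell receptor induces early, 8 of 23 were higher and 10 lower (median -0.15). Of all genes tested 24.3% were higher and 24.4% lower. Tnfrsf4, the costimulatory receptor OX40, had 514, 448 and 563 CPM at 72 h and 86.5, 95.8 and 71.8 CPM in mature cells, and Tnfrsf18, GITR, had 918, 922 and 1010.4 CPM at 72 h and 298, 294 and 344 CPM in mature cells. Myc, the transcription factor of growth, had 268, 283 and 299 CPM at 72 h and 57.7, 71.4 and 80 CPM in mature cells (log2 difference 2.01 ± 0.17). The groups did not overlap at these 3 genes. The immediate early factor Egr1 was lower, at 37.1, 41.8 and 34.5 CPM at 72 h and 298, 277 and 251 CPM in mature cells (log2 difference -2.85 ± 0.20). Cd69, a surface marker of recent receptor engagement, had 44.6, 43.8 and 30.1 CPM at 72 h and 63.5, 77.5 and 83.2 CPM in mature cells (log2 difference -0.90 ± 0.22, adjusted p = 0.000877). At both genes every activated library was below every mature one. The AP-1 list, genes of immediate early transcription that are also known to be induced when tissue is taken apart, had 10 of 14 tested members lower and 2 higher. Fos had 13.7, 7.53 and 8.84 CPM at 72 h and 748, 846 and 862 CPM in mature cells (log2 difference -6.29 ± 0.19, adjusted p = 4.09e-25), Jun had 14.3, 21.9 and 23.9 CPM at 72 h and 648, 618 and 508 CPM in mature cells, and the naive cells, also MACS enriched, had 404, 463 and 491 CPM of Fos. The exceptions were Atf3 (2.95 ± 0.44) and Jund (0.92 ± 0.15). Selection by MACS or by sorting moved with this group of genes, and its part was not tested.

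Genes of the T-cell receptor complex and its proximal signalling were lower in 12 of 20 members and higher in 1, with a median of -0.52. Lck, the kinase bound to CD4, had 1303, 1244 and 1368 CPM at 72 h and 2017, 2079.6 and 1945 CPM in mature cells (log2 difference -0.63 ± 0.14). Fyn, a related kinase, had 472, 479 and 343 CPM at 72 h and 796, 756 and 796 CPM in mature cells. The groups did not overlap at either gene. Cd247, the zeta chain, had 605, 565 and 629 CPM at 72 h and 608, 648 and 599 CPM in mature cells (log2 difference -0.04 ± 0.12, adjusted p = 0.788). The 12 that fell had log2 differences between -1.16 (Nfatc1, a factor that calcium signals activate) and -0.44 (Ptprc, the phosphatase CD45). Ptprc no longer passed without CD62L negative replicate 3 (adjusted p = 0.0917) or without mature replicate 3 (0.0712).

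Genes of naive and central memory cells did not move as a block. Of 24 members 8 were higher at 72 h and 13 lower, with a median of -0.58, where 24.3% of all genes tested were higher and 24.4% lower. Ccr7, the lymph node homing receptor, had 959, 878 and 1094 CPM at 72 h and 352, 357 and 328 CPM in mature cells (log2 difference 1.50 ± 0.14, adjusted p = 5.9e-11). Igfbp4, a secreted binding protein that naive T cells express, had 781, 847 and 1012 CPM at 72 h and 57.7, 67.3 and 63.6 CPM in mature cells (log2 difference 3.80 ± 0.22), and unactivated naive cells had 589.9, 925 and 1554 CPM. Every activated library was above every mature one at both genes. Bcl2, a survival factor, had 831, 910.4 and 916 CPM at 72 h, against 198, 214 and 211 CPM in mature cells. Satb1, a chromatin organiser, had 772, 750.2 and 743 CPM at 72 h and 242, 255 and 286 CPM in mature cells, and Lef1, a transcription factor of the Wnt pathway, had 426, 413 and 449.9 CPM at 72 h and 206, 216 and 201 CPM in mature cells. Tcf7, a relative of Lef1, was lower, at 45.1, 45.9 and 39.8 CPM at 72 h and 131, 108 and 106 CPM in mature cells (log2 difference -1.39 ± 0.21). Il7r, the receptor chain for the survival cytokine IL-7, had 79.4, 81.5 and 46.9 CPM at 72 h and 204, 226 and 206 CPM in mature cells. Also lower were Klf2, a factor that keeps T cells recirculating, at 449, 465 and 453 CPM at 72 h and 835, 779 and 731 CPM in mature cells, and its target S1pr1, the receptor for exit from lymphoid organs, at 217, 174 and 163 CPM at 72 h and 379, 367 and 299 CPM in mature cells. No library of one group reached into the other at these genes.

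The effector memory list fell, with 21 of 29 tested members lower at 72 h, 3 higher and a median log2 difference of -2.02. Ccl5, a chemokine stored by memory cells, had 139.9, 104 and 99 CPM at 72 h and 3069, 3784 and 3377 CPM in mature cells (log2 difference -4.89 ± 0.35, adjusted p = 3.06e-08). Cxcr3, a chemokine receptor for inflamed tissue, had 105, 108 and 94.6 CPM at 72 h and 408, 536 and 441 CPM in mature cells. Maf, a transcription factor of helper subsets, had 6.85, 7.53 and 4.42 CPM at 72 h and 137, 124 and 119 CPM in mature cells (log2 difference -4.27 ± 0.28). The mature libraries were above the activated ones throughout these genes. Rora, a nuclear receptor, had 16.6, 10.3 and 14.1 CPM at 72 h and 163, 167 and 149 CPM in mature cells. Ly6c2, a surface protein with a near-identical neighbour in Ly6c1 so that reads may be split between them, had 12.6, 15.1 and 9.72 CPM at 72 h and 385, 446 and 450.4 CPM in mature cells. Again no library of the activated cells reached the mature level. Unactivated naive cells also held these transcripts, with means of 1843 CPM of Ccl5 and 323.8 CPM of Ly6c2. Their means were 158 CPM of Cxcr3, 29.1 CPM of Maf and 38.5 CPM of Rora. Id2, a regulator of effector differentiation, was lower at 428 ± 46.5 CPM at 72 h and 1495 ± 41.8 CPM in mature cells (SD, n = 3 each). The integrin chains Itga4, Itgb1 and Itgal fell by 2.21, 1.31 and 1.16 on the log2 scale. The 3 members that were higher were Vim, the intermediate filament vimentin, with 3910.1, 3983 and 4031 CPM at 72 h and 652, 687 and 774 CPM in mature cells, Lgals1 (1.04 ± 0.28) and Il2rb. NK and myeloid cells also express several of these genes, and their marker sums, given above, were lower at 72 h as well, with 27.4 to 35.6 CPM at 72 h and 286.5 to 311.7 CPM in mature cells for the CD8 and NK list. Their part in the falls was not tested.

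**Figure D4:**
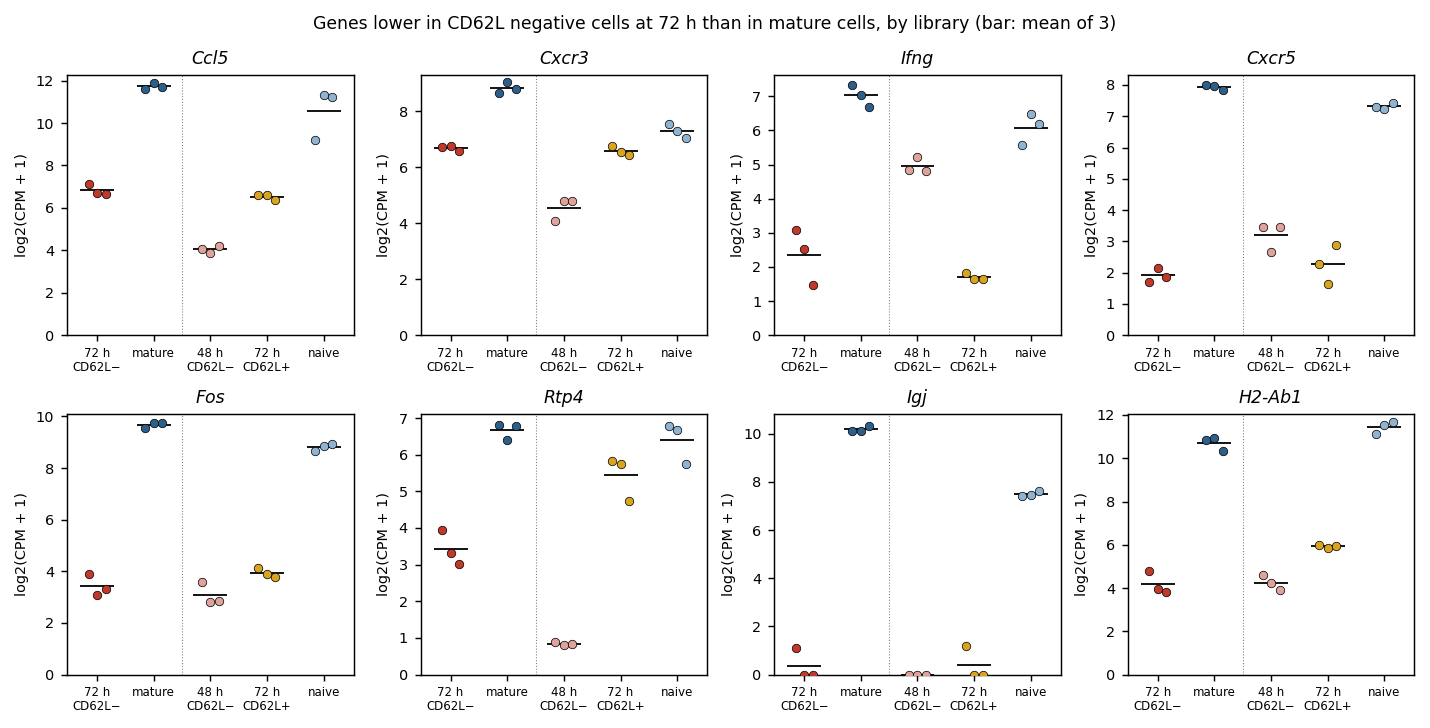
Level of 8 genes in every library, as log2(CPM + 1), for CD62L negative cells at 72 h, mature cells and, right of the dotted line, CD62L negative cells at 48 h, CD62L positive cells at 72 h and naive cells, with a bar at the mean of 3. In each of the 8 genes all 3 CD62L negative libraries at 72 h lie below all 3 mature libraries, as for Ccl5 with 99.0 to 139.9 CPM at 72 h and 3069 to 3784 CPM in mature cells.

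All 6 tested chemokines were lower at 72 h (median -4.44), where 24.4% of all genes tested were lower. Ccl3, a chemokine of activated T and NK cells, had 1.14, 1.37 and 3.54 CPM at 72 h and 19.2, 26.5 and 47.3 CPM in mature cells. Ccl9, a chemokine of myeloid cells, had 0 counts at 72 h and 26.9, 36.7 and 31 CPM in mature cells, so it was at least 45.5-fold lower (against 3 counts over the 72 h libraries). Xcl1, which memory and NK cells secrete, had a single count at 72 h and 36.5, 16.3 and 22.8 CPM in mature cells, a ratio of mature to activated of 109.7 with a counting interval of 18.6 to 4437. Naive cells had means of 43.8 CPM of Ccl3, 44.6 CPM of Ccl9 and 15.0 CPM of Xcl1. Of 12 Th1 genes 8 were lower and 1 higher. Tbx21, the Th1 master regulator T-bet, had 46.8, 54.1 and 50.4 CPM at 72 h and 154, 181 and 166 CPM in mature cells (log2 difference -1.73 ± 0.17), and Fasl, the death ligand, had 4.57, 4.79 and 0.884 CPM at 72 h and 65.4, 55 and 53.9 CPM in mature cells. The groups were apart in each case. Gata3, the Th2 master regulator, had 295, 275 and 263 CPM at 72 h and 267, 192 and 239.9 CPM in mature cells, which did not pass the test (adjusted p = 0.124). Of the cytotoxic granule list 4 of 6 tested members were lower, with Nkg7 at 31.4, 21.9 and 27.4 CPM at 72 h and 269, 212 and 281 CPM in mature cells, while Gzmb, granzyme B, had 78.3, 76.7 and 53 CPM at 72 h and 63.5, 48.9 and 73.4 CPM in mature cells (adjusted p = 0.582). The CD8 and NK marker sum was lower at 72 h too, at 27.4 to 35.6 CPM, against 286.5 to 311.7 CPM in mature cells. Its part in the falls of the chemokine, Th1 and cytotoxic granule lists was not tested.

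Follicular helper genes were lower in 10 of 12 tested members, with a median of -2.57. Cxcr5, the receptor that takes these cells to B cell follicles and that B cells express too, had 2.28, 3.42 and 2.65 CPM at 72 h and 258, 249 and 230.1 CPM in mature cells (log2 difference -6.40 ± 0.28, adjusted p = 5.78e-20). Bcl6, the repressor that defines the subset, had 8.57, 2.05 and 6.19 CPM at 72 h and 65.4, 57.1 and 57.1 CPM in mature cells. Pdcd1, the inhibitory receptor PD-1, had 25.7, 24 and 25.6 CPM at 72 h and 142, 161 and 113 CPM in mature cells. No overlap was seen at these 3 genes. The B cell marker sum moved with them, at 74.3 to 114.8 CPM at 72 h and 7233 to 8388 CPM in mature cells, and its part was not tested. Naive cells had means of 158.3 CPM of Cxcr5, 37.2 CPM of Bcl6 and 54.4 CPM of Pdcd1. Of the regulatory T cell list 8 of 12 tested members were higher and 3 lower. Foxp3, which defines that lineage, was among the lower ones, at 9.14, 3.42 and 5.3 CPM at 72 h and 26.9, 26.5 and 39.2 CPM in mature cells (log2 difference -2.31 ± 0.41), as was Ikzf2 (Helios), at 14.3, 13.7 and 14.1 CPM at 72 h and 158, 157 and 173 CPM in mature cells. Means in naive cells were 33.2 CPM of Foxp3 and 34.6 CPM of Ikzf2. The higher members included Il2ra, Tnfrsf18, Lrrc32 (2.84 ± 0.33) and Ctla4, a receptor that all activated T cells acquire, with 252, 225 and 217 CPM at 72 h and 51.9, 69.3 and 65.3 CPM in mature cells. Of 9 tested inhibitory and other checkpoint receptors 5 were lower, Pdcd1 among them, and 2 higher, Ctla4 and Tnfrsf18. The shares over all genes tested were 24.4% lower and 24.3% higher.

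The type I interferon response was lower in 18 of 22 tested members, with a median of -1.72, where 24.4% of all genes tested were lower. Rtp4, an interferon-induced chaperone of membrane receptors, had 14.3, 8.9 and 7.07 CPM at 72 h and 112, 83.6 and 109 CPM in mature cells (log2 difference -3.26 ± 0.28), and Oas2, a sensor of double-stranded RNA, had 4.00, 2.05 and 1.77 CPM at 72 h and 38.5, 40.8 and 27.7 CPM in mature cells. Mx1, an antiviral GTPase, had 5.71, 6.16 and 6.19 CPM at 72 h and 34.6, 53 and 55.5 CPM in mature cells. All activated libraries were below all mature ones. Naive cells had means of 87.8 CPM of Rtp4, 82.4 CPM of Oas2 and 13.2 CPM of Mx1. Of 24 tested genes of interferon gamma responses and antigen presentation 5 were higher and 4 lower. These are no larger shares than the 24.3% higher and 24.4% lower of all genes tested. Igtp, an immunity-related GTPase, had 1409, 1013 and 1319 CPM at 72 h and 340.4, 365 and 323 CPM in mature cells, and Gbp2 had 554, 451 and 343 CPM at 72 h and 92.3, 77.5 and 104 CPM in mature cells. The class I heavy chain H2-K1, whose family members are close in sequence, had 2953, 3381 and 3273 CPM at 72 h and 5656, 5729 and 6392 CPM in mature cells. Gimap genes, GTPases of lymphocyte survival, were lower in 4 of 8 members, as in Gimap6 with 851, 867 and 952 CPM at 72 h and 1792, 1941 and 1903 CPM in mature cells (log2 difference -1.08 ± 0.12).

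Of the 10 largest falls of well expressed genes, all but Fos and Dtx1 are genes of B cells, plasma cells or class II presentation. Dtx1, a regulator of Notch signalling in T and B lymphocytes, had 2.28, 1.37 and 2.65 CPM at 72 h and 842, 897 and 769 CPM in mature cells. Igj, the joining chain of secreted antibodies, had 2 counts in all at 72 h and 1119, 1095 and 1269.7 CPM in mature cells, a ratio of mature to activated of 2538 with a counting interval of 701.5 to 20970.0. Mzb1, a chaperone of antibody-secreting cells, had 4.00, 3.42 and 3.54 CPM at 72 h and 1713, 1876 and 1976 CPM in mature cells (log2 difference -8.92 ± 0.20, adjusted p = 1.24e-28). These transcripts were near 0 in every activated library. The others of the 10 were Ly6d, H2-Aa, H2-Eb1, Cd74, the invariant chain of class II molecules, and Derl3, a protein of endoplasmic reticulum degradation. H2-Ab1, a class II chain, had 26.8, 14.4 and 13.3 CPM at 72 h and 1856, 1957 and 1289 CPM in mature cells. Sdc1, the plasma cell marker CD138, chosen after its values were seen, had 4.57, 5.48 and 4.42 CPM at 72 h and 148, 145 and 139 CPM in mature cells. These values stood far apart between the groups. In the same libraries, 9 of 15 tested chaperones of the secretory pathway were lower at 72 h and 2 higher (median -0.82), with Dnajb9 at 6.85, 7.53 and 8.84 CPM at 72 h and 53.8, 65.2 and 71.8 CPM in mature cells, and Xbp1, the transcription factor of that pathway, at 425, 466 and 344 CPM at 72 h and 908, 958 and 1017 CPM in mature cells. The part of plasma cell RNA in the chaperones was not tested.

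Some genes were detected in 1 group alone. With 0 counts at 72 h, Ccr9, a gut-homing chemokine receptor, had 188, 153 and 153 CPM in mature cells and was at least 238.1-fold lower at 72 h, and Klrb1c (NK1.1) had 121, 130.5 and 111 CPM and was at least 173.9-fold lower. Adam11, Chst1 and Bhlha15, a transcription factor of secretory cells, were at least 112.4-fold, 68.7-fold and 67.8-fold lower. With 0 counts in mature cells, Pros1, protein S of the coagulation system, had 40.6, 44.5 and 35.4 CPM at 72 h and was at least 21.9-fold higher, and Gpld1, a phospholipase that cuts membrane anchors, had 37.7, 35.6 and 40.7 CPM and was at least 20.4-fold higher. All 3 activated libraries held both transcripts. Drc1, Nov and Stra6 were at least 15.9-fold, 14.9-fold and 9.22-fold higher. These bounds take 3 counts over the group at 0. Of the 10 largest rises, Tfrc, the transferrin receptor that brings iron to growing cells, had the largest standard error, with 229, 244 and 46 CPM at 72 h, replicate 3 being the low one, and 21.2, 10.2 and 3.26 CPM in mature cells (log2 difference 3.97 ± 1.00, adjusted p = 0.00511, and 4.77 without mature replicate 1). Serpine2, a protease inhibitor, had 65.7, 80.1 and 61 CPM at 72 h and 3.85, 4.08 and 1.63 CPM in mature cells.

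The second comparison asked where the difference of the CD62L negative pair departed from that of the CD62L positive pair, which shares no library with it: CD62L negative cells at 72 h minus mature cells, less CD62L positive cells at 72 h minus naive cells. This difference of differences passed the test at 924 of 8961 genes (10.3%), higher at 371 (4.14%) and lower at 553 (6.17%). The naive libraries limit it, with 58750, 249838 and 336355 counts. Naive replicate 1 held 1076 genes below 0.5 of both other libraries of its group, and replicate 3 of the CD62L positive cells at 72 h held 275, of which 20 were also among the 54 of CD62L negative replicate 3. Leaving out 1 library at a time gave 507 genes without naive replicate 2 and 1260 without replicate 3 of the CD62L positive cells at 72 h, with the other 10 between these counts.

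The called genes of ribosome biogenesis and nucleotide synthesis were higher in this difference, and those of mitosis lower. Of the ribosome biogenesis list 9 of 23 members had a higher difference in the CD62L negative pair (median 1.08), and of nucleotide and polyamine synthesis 9 of 18 (median 1.04), where 4.14% of all genes tested did. Nolc1 had 236, 225 and 278 CPM in CD62L negative cells at 72 h and 96.2, 99.9 and 80 CPM in mature cells, against 122, 142 and 167 CPM in CD62L positive cells at 72 h and 109, 136 and 165 CPM in naive cells (difference of differences 1.46 ± 0.25, adjusted p = 0.00019). The libraries overlapped in the CD62L positive pair and not in the CD62L negative pair. After thinning all libraries to 58750 counts, Nolc1 (1.07, adjusted p = 0.329) and Srm, described next (1.23, adjusted p = 0.26), no longer passed. Srm had 223, 217 and 206 CPM in CD62L positive cells at 72 h and 155, 199 and 205 CPM in naive cells, beside the CD62L negative values above (1.37 ± 0.27). In the mitosis list 10 of 27 members had a lower difference in the CD62L negative pair (median -1.10), where 6.17% of all genes tested did, while DNA replication had 1 of 28 higher (median 0.04). Some mitosis members were at or near 0 in naive cells, as Kif20a and Bub1 with means of 0 CPM and Ttk with 1.4 CPM. Fitted differences at such genes are no bounds, and the part of low naive counts was not tested. List counts of the difference of differences were not taken under other settings. Other biosynthetic groups departed in few genes, with 2 of 18 higher in glycolysis, 2 of 22 in cholesterol and fatty acid synthesis, 2 of 20 in the ATF4 list and 1 of 15 in the tricarboxylic acid cycle. Top2a had 1308, 1319 and 1364 CPM in CD62L positive cells at 72 h and 0, 55.2 and 77.7 CPM in naive cells, beside 1094 to 1175 CPM in CD62L negative cells at 72 h and 120.3 to 163.2 CPM in mature cells (-1.49 ± 0.29, adjusted p = 0.00086). The naive libraries lay below the mature ones, and the CD62L positive libraries at 72 h above the CD62L negative ones. Among 24 genes of interferon gamma responses and antigen presentation 12 had a lower difference and 1 a higher one, and 5 of 8 Gimap genes had a lower one.

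**Figure D5:**
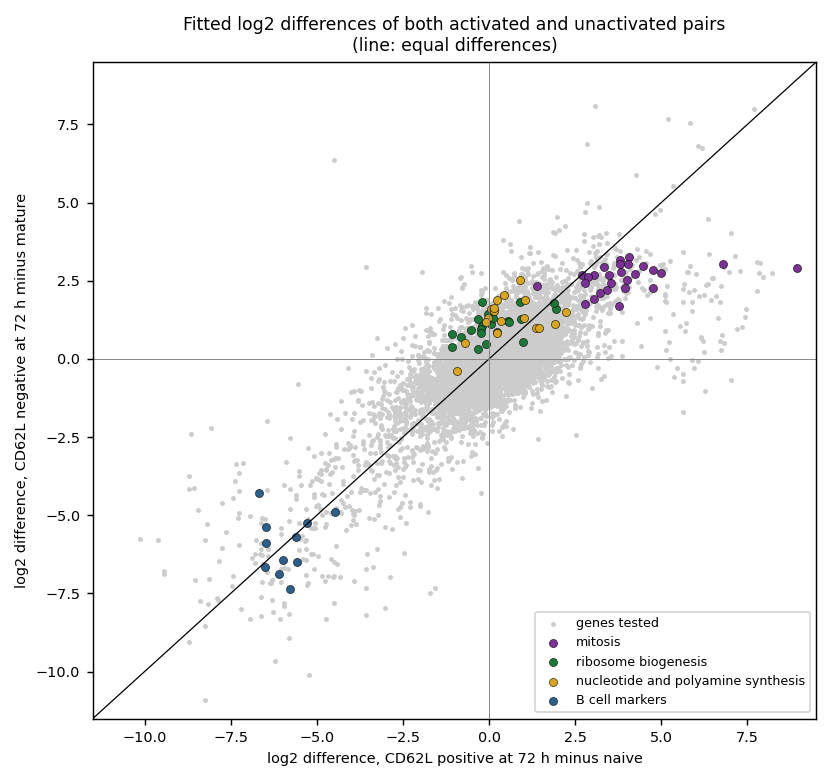
Fitted log2 difference of CD62L positive cells at 72 h minus naive cells (horizontal axis) and of CD62L negative cells at 72 h minus mature cells (vertical axis), with 1 point for each of 8961 genes tested, 4 gene lists in colour and a line where both differences are equal. Most mitosis genes lie below the line (median difference of differences -1.10), most ribosome biogenesis and nucleotide synthesis genes above it (1.08 and 1.04), and B cell markers lie low in both pairs (-0.13).

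Among single genes Igfbp4 had the smallest adjusted p: it had 1493, 1444 and 1396 CPM in CD62L positive cells at 72 h and 589.9, 925 and 1554 CPM in naive cells, which overlap, beside the rise over mature cells given above (difference of differences 3.40 ± 0.29, adjusted p = 1.99e-08). Cdkn1a had 302, 275 and 313 CPM in CD62L positive cells at 72 h and 93.1, 59.4 and 15.5 CPM in naive cells (2.16 ± 0.45, adjusted p = 0.00174, and 1.72 with an adjusted p of 0.0819 without naive replicate 2). The groups of that pair did not overlap at Cdkn1a, and the difference was larger in the CD62L negative pair. Ccr7 had 1548, 1378 and 1302 CPM in CD62L positive cells at 72 h and 993, 1290.2 and 1673 CPM in naive cells (1.45 ± 0.20), with overlap. Il2ra rose in both pairs, with 949.6, 863 and 937 CPM in CD62L positive cells at 72 h and 46.6, 8.49 and 28 CPM in naive cells, and its difference of differences did not pass the test (0.19 ± 0.44, adjusted p = 0.839).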

How the data were processed

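Libraries of mRNA 3′ ends with molecular identifiers were made from CD4 T cells, per the labels' protocols. HISAT 0.1.5, STAR 2.5.2b, HTSeq 0.9.1, bcl2fastq 2.17.1.14 and FastQC 0.11.7 and build mm9 are named, with no order, per the submitters' processing notes. No source used here gives the collapsing of identifiers, the annotation or the strand setting. The authors deposited 1 table of whole-number counts for 19791 gene symbols in the 18 libraries of the first experiment, and each column was assigned by its name. The headers of the mature and naive columns end in "M reads", which no source used here explains. The 38 libraries of the other experiment were not used here.

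The counts were tested as deposited with edgeR 4.0.16 under R 4.3.3 (limma 3.58.1): TMM scaling, filterByExpr with a minimum count of 10 and a robust quasi-likelihood fit of 6 groups of 3 libraries with 12 residual degrees of freedom. Calls have a Benjamini-Hochberg adjusted p under 0.05 over 8961 genes. Alternatives are given at the end, among them DESeq2 1.42.0. Tested on data simulated for the main comparison (8370 genes), the fit recovered 58 of 100 genes changed 2-fold and 90 of 100 changed 4-fold, and called 5 of 8183 unchanged genes. For the difference of differences it recovered 16 of 100 and 68 of 100. The simulation changed 200 genes, as many up as down, where 48.7% of genes tested differed in the data. Its count of false calls thus does not show how the scaling and the test behave in these libraries.

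The gene lists and members were chosen with earlier results of these data known. Genes were named by rule: the 10 largest rises and falls among called, well expressed genes whose groups do not overlap, up to 4 members with the smallest adjusted p in each list, up to 5 genes with 0 counts in 1 group each way, a set of T-cell genes, and the 6 largest differences of differences each way. Other members of the lists were named after their values were seen. Totals of 1153970 to 1738555 counts at 72 h and 481429 to 603217 in mature cells set the precision, and counting intervals (95%, exact) cover counting error only. Promoter letters are from RefSeq on GRCm38.p6, and no coordinate of the authors' build was used. Some items are not reported here.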

Additional observations from a re-analysis of the deposited data

Results flagged for a closer look

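At 12 genes, named by the rule of the 6 largest each way, the difference of the CD62L negative pair (72 h minus mature) departed from that of the CD62L positive pair (72 h minus naive) by the test of the difference itself (edgeR's quasi-likelihood test, adjusted over 8961 genes). Larger in the CD62L negative pair were Serpine2 (3.54 ± 0.87, adjusted p = 0.00657), Igfbp4 (3.40 ± 0.29, adjusted p = 1.99e-08) and Lad1 (3.06 ± 0.62, adjusted p = 0.00109, and 2.15 with an adjusted p of 0.436 after thinning to the shallowest library). Lad1, an anchoring filament protein, had 161, 151 and 193 CPM in CD62L negative cells at 72 h and 21.2, 10.2 and 8.16 CPM in mature cells, against 30.5, 27.6 and 21.5 CPM in CD62L positive cells at 72 h and 15.5, 21.2 and 15.5 CPM in naive cells. The same direction held at Nefh, a neurofilament gene (2.98 ± 0.50, adjusted p = 0.000118), Ifrd2 (2.44 ± 0.39, adjusted p = 7.84e-05) and Tgm2, a transglutaminase (2.38 ± 0.41, adjusted p = 0.00016, and 3.54 with an adjusted p of 0.07 after that thinning). Igfbp4 kept its call after that thinning. Serpine2, Nefh and Ifrd2 did not reach the test there, so their calls were not checked at that depth.

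Smaller in the CD62L negative pair were Mzb1 (-3.11 ± 0.39, adjusted p = 2.47e-06, but 2.84 with an adjusted p of 0.729 after that thinning), Hif1a (-2.88 ± 0.82, adjusted p = 0.0294) and Wsb1, a ubiquitin ligase subunit (-3.47 ± 0.93, adjusted p = 0.0195), for which the 3 naive libraries held 475, 6 and 3 counts in all, in that order. So were the DNA repair factor Rad51ap1 (-3.29 ± 0.88, adjusted p = 0.0138), the kinetochore protein Zwilch (-2.998 ± 0.89, adjusted p = 0.0314) and the mitotic kinesin Kif20a (-6.05 ± 1.88, adjusted p = 0.0329). The naive libraries held 1 count in all for Rad51ap1 and for Zwilch and 0 counts for Kif20a, so these fitted sizes are no bounds. Kif20a had 61.1, 64.3 and 55.7 CPM in CD62L negative cells at 72 h and 7.69, 8.16 and 8.16 CPM in mature cells, against 49.6, 77.5 and 98.7 CPM in CD62L positive cells at 72 h and 0, 0 and 0 CPM in naive cells. Without naive replicate 2, Serpine2, Hif1a, Wsb1, Rad51ap1, Zwilch and Kif20a no longer passed, with adjusted p of 0.0915, 0.114, 0.114, 0.127, 0.197 and 0.119. Over 20 other settings, glmTreat apart, Hif1a and Kif20a each lost the call in 8, Zwilch in 6, Wsb1 in 3, Rad51ap1 in 2 and Serpine2 in 1, among them DESeq2 for Kif20a, Zwilch and Rad51ap1. Thinning is not among these settings, since none of these genes reached the test after it. The depth of the naive libraries, 58750 to 336355 counts, moved with these values, and its part was not tested.

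Of the other genes whose difference of differences the report gives, Cdkn1a (2.16), Nolc1 (1.46), Ccr7 (1.45) and Srm (1.37) differed more in the CD62L negative pair and Top2a (-1.49) less, and Nolc1 and Srm did not pass after that thinning. Il2ra did not pass.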

How the results depend on the processing

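For 72 h CD62L negative against mature cells, 4366 genes passed (2180 higher, 2186 lower), and leaving out 1 library at a time gave 3868 to 4345 (1922 to 2158 higher, 1946 to 2187 lower), with 3868 without mature replicate 1. Against a 2-fold difference, edgeR's glmTreat passed 1245 genes (578 higher, 667 lower). The other settings (DESeq2, RLE and upper-quartile scaling, no filter or a minimum count of 30, the 2 groups alone, library sizes without other cell types' markers, thinning to the shallowest library) gave 3565 to 4883. For the difference of differences, 924 genes passed (371 higher, 553 lower), 32 by glmTreat (14 higher, 18 lower) and 95 after thinning to 58750 counts a library (33 higher, 62 lower), where 2377 genes were tested. Leaving out 1 library at a time gave 507 to 1260 (211 to 547 higher, 296 to 713 lower). Of the named genes, Mzb1 reversed in the difference of differences after thinning (2.84, adjusted p = 0.729). Genes that passed in no setting and lay near 0 also changed sign: with no filter Cd247 was at 0.0238 and Tnf at 0.0386, and leaving out 1 library at a time gave -0.0712 to 0.0023 for Cd247, -0.0050 to 0.22 for Slc2a3, -0.38 to 0.14 for Tnf and, in the difference of differences, -0.23 to 0.70 for Il2ra. The cause was not tested. The replicate block gave 4345 and 855 genes. Replicate numbers did not pair the CD62L negative cells at 72 h with the mature cells: same-numbered libraries had correlated deviations of -0.0549, -0.115 and -0.246. Depth limits the naive libraries most.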

Other observations

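Genes of lung epithelium, chosen after their values were seen, were present in these spleen libraries. Sftpc, surfactant protein C, had 155, 82.8 and 39.8 CPM in CD62L negative cells at 72 h and 150.0, 183 and 246 CPM in mature cells (adjusted p = 0.0918, and 0.0166 without CD62L negative replicate 1), and 1832, 1413 and 793 CPM in naive cells. Scgb1a1, the club cell secretory protein, had 38.3, 19.9 and 6.19 CPM in CD62L negative cells at 72 h and 34.6, 38.7 and 76.7 CPM in mature cells (adjusted p = 0.0995, and 0.0112 without that replicate), and 559, 488 and 261 CPM in naive cells.

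CD62L negative cells at 48 h, in no comparison here, already held several of the transcripts described at 72 h. Il2ra had 1697, 1536 and 1525 CPM at 48 h, Top2a had 824, 849 and 869 CPM and Cdkn1a had 1373, 1366 and 1166 CPM. Igfbp4 had 112, 107 and 132 CPM at 48 h, below its level at 72 h.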
